A study of Danio rerio with 6 samples.

Results

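The genes described here are 46 genes of DNA replication, of the step from G1 into S phase and of mitosis, taken by symbol from the table of gene counts of a zebrafish (Danio rerio) mutant study. All 46 symbols were found, on 47 of the 32057 gene entries of the table, because rrm2 stands on 2 entries, and all 47 entries passed the filter on low counts. They were divided by role into 20 genes of the replication machinery (21 entries), 5 regulators of entry into S phase and 21 genes of mitosis. The study compared single whole embryos at the stage of 10 somites, 3 wild type (WT) and 3 labelled 3etv, with messenger RNA read as poly-A, strand-specific libraries. The series title calls 3etv Pea3 triple mutants. The Pea3 genes encode ETS transcription factors that act downstream of fibroblast growth factor signalling. The labels name neither the 3 mutated genes nor the alleles, parents, clutch or strain, so genotype and clutch cannot be told apart. Each library came from 1 embryo, and each embryo is 1 replicate.

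A dividing cell copies its genome once per cycle. In late mitosis and G1, the origin recognition complex, cdc6 and cdt1 load the ring of MCM proteins onto DNA. Cyclin-dependent kinases then fire these origins in S phase, and polymerases, the sliding clamp pcna and ligases make the new strands. In vertebrate cells, many replication genes are transcribed near the start of S phase under E2F factors, and many mitosis genes later, in G2 and M. Levels in a whole embryo are therefore an average over cells at every phase and in every tissue, and in such bulk samples fewer dividing cells cannot be told apart from less RNA per cell.

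Gene totals ranged from 22446699 to 28841169 counts in WT and from 18484238 to 21865288 in 3etv, so that every 3etv library was the shallower. Values are given as CPM, counts scaled to a library of 1000000 after TMM scaling between libraries, and differences as log2 fold changes of 3etv over WT from edgeR's quasi-likelihood test, with p-values adjusted over 18533 tested genes. Among the Pea3 genes, etv5a lay between 74.9 and 78.3 CPM in WT and between 25.4 and 28.6 in 3etv, and etv5b between 192.8 and 209.9 and between 54.7 and 69.2. etv4 lay between 86.0 and 89.8 CPM in WT and between 45.9 and 77.7 in 3etv. Its difference of -0.52 on the log2 scale (SE 0.17) did not reach an adjusted p under 0.05 (edgeR adjusted p 0.057). The fourth Pea3 gene, etv1, was low, at 1.08 to 1.65 CPM in WT and 0.44 to 0.64 in 3etv (log2 fold change -1.33, edgeR adjusted p 0.0082). Each of the 12 tissue markers looked up, among them sox3 for neural tissue, myod1 for somites and gata1a for blood, had counts in every embryo, with sox17 of the endoderm lowest at 0.34 to 1.84 CPM.

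At an adjusted p under 0.05, 4 of the 47 entries differed (8.51%), against 31.3% of all tested genes. Replication helicase genes mcm7 and mcm4 and the cyclin gene ccnd1 were lower in 3etv, and top2a was higher. These 3 and 1 entries are 6.38% and 2.13% of the members, beside 15.4% and 15.9% of all tested genes. Among the 9549 tested genes with a mean of at least 9.02 CPM, the level of the lowest member, the share that differed was 32.1%, 17% lower and 15% higher. The same 4 members, and no others, also passed with DESeq2 and with limma voom.

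**Figure D1:**
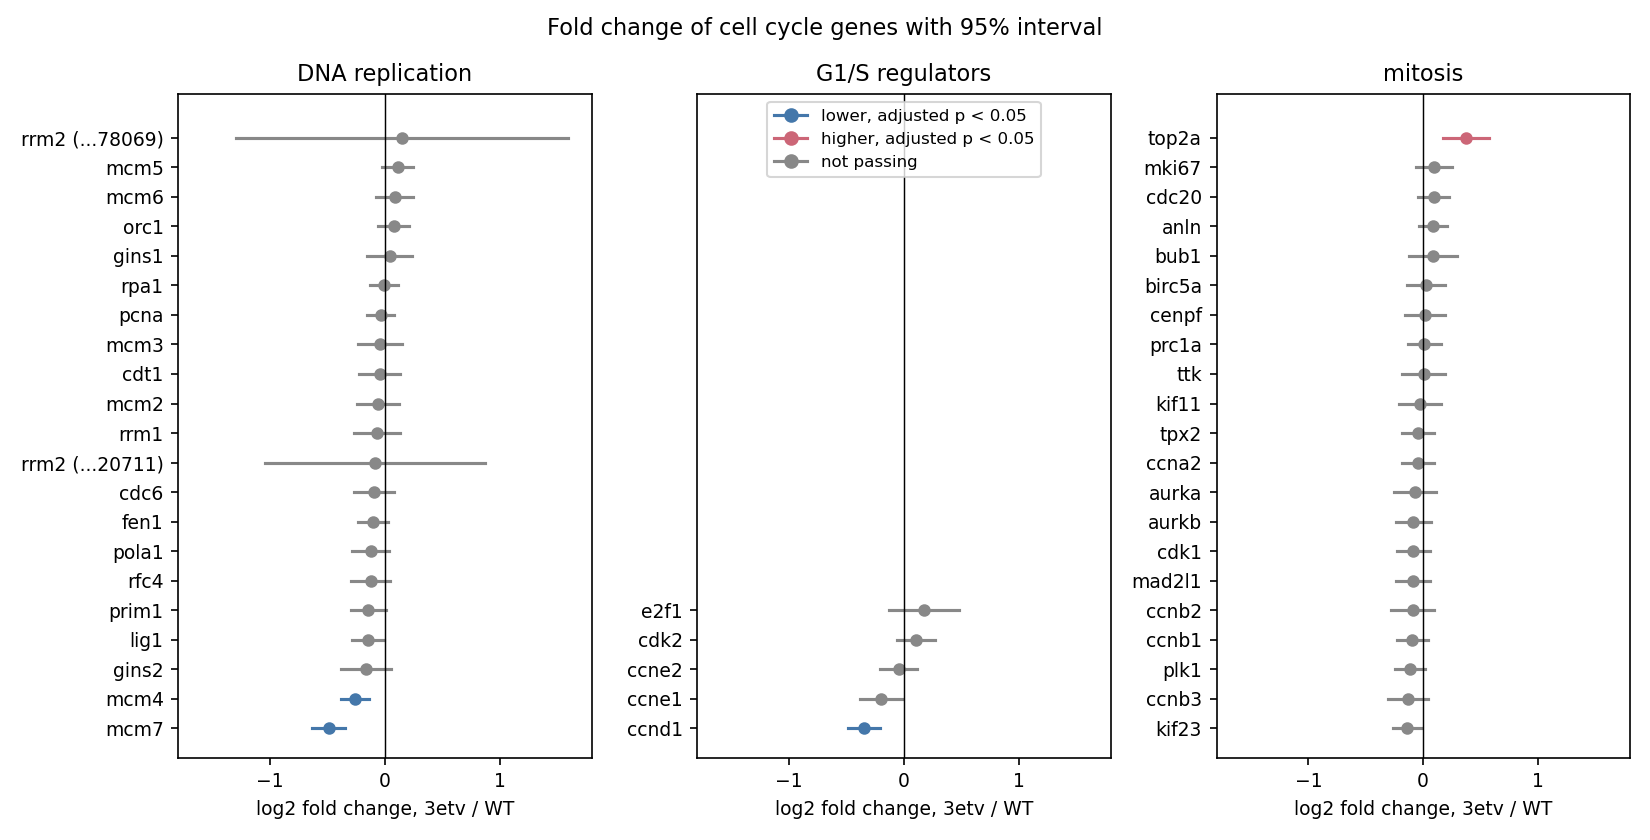
Log2 fold change of 3etv over WT for each of the 47 entries (point, horizontal axis) with its 95% interval (line), in panels by role and ordered by fold change. Blue and red mark the 4 entries that passed an adjusted p of 0.05; both rrm2 entries have wide intervals, and most other points lie close to 0.

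The precision was sufficient to bound most of these genes. The 95% interval of the fold change lay within 1.5-fold in either direction for 44 of 47 entries (93.6%), against 49.7% of all tested genes and 80.9% of those at or above the level of the lowest member. The 3 exceptions were mcm7 and both rrm2 entries. The median log2 fold change of the 47 entries was -0.045, with 31 of 47 below 0, while that of all tested genes was 0.0035, with 49.6% below 0. In absolute size the median was 0.088 for the members and 0.25 for all tested genes, or 0.16 for tested genes at or above the level of the lowest member.

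Among the 6 genes of the replication helicase, mcm7 and mcm4 were lower in 3etv. The MCM2 to MCM7 proteins form a ring of 6 subunits, 1 of each, that unwinds DNA at the fork. mcm7 (ENSDARG00000101180) stood at 371.5, 394.1 and 400.7 CPM in WT embryos 1, 2 and 3 and at 303.5, 258.4 and 269.1 in 3etv embryos 1, 2 and 3. All 3 mutant embryos lay below all WT embryos. The fall from 388.8 ± 15.3 to 277.0 ± 23.5 CPM (SD, n = 3 each) was -0.49 on the log2 scale (SE 0.067, edgeR adjusted p 1.34e-04), or 71.2% of the WT level. mcm4 (ENSDARG00000040041) stood at 361.4, 376.4 and 368.8 CPM in WT and at 323.6, 292.8 and 305.7 in 3etv, again without overlap. Its level fell by 0.26 on the log2 scale (SE 0.057, edgeR adjusted p 0.0035), to 83.3% of the WT level.

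The other 4 subunits did not pass the test. mcm5 had 289.8, 327.8 and 325.3 CPM in WT and 357.6, 331.5 and 329.4 in 3etv, the mutants lying just above the WT embryos (log2 fold change 0.11, edgeR adjusted p 0.21). mcm6 had a log2 fold change of 0.084, mcm2 of -0.059 and mcm3 of -0.040, and in these 3 genes the groups overlapped. WT embryo 1 was the lowest WT embryo in each of these 4 genes, for instance at 250.8 CPM of mcm3 against 321.0 and 302.9 in WT embryos 2 and 3.

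Expressed as a share of the CPM of all 6 subunit genes in the same embryo, mcm7 made up 17.6% to 18.9% in WT and 13.5% to 14.1% in 3etv. The share of mcm4 was 16.5% to 18.4% in WT and 15.1% to 15.9% in 3etv. mcm5 went from between 14.6% and 14.8% to between 16.7% and 17.3%, and mcm6 from between 17.1% and 18.0% to between 19.6% and 20.7%. None of these 4 shares overlapped between the groups, while those of mcm2 and mcm3 did. Shares sum to a fixed total, so a lower share of 1 subunit raises the others. The summed level of the 6 genes overlapped between groups, at 1961 to 2237 CPM in WT and 1916 to 2147 in 3etv. The shares were chosen for description after the single genes had been seen, and no test was run on them.

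**Figure D2:**
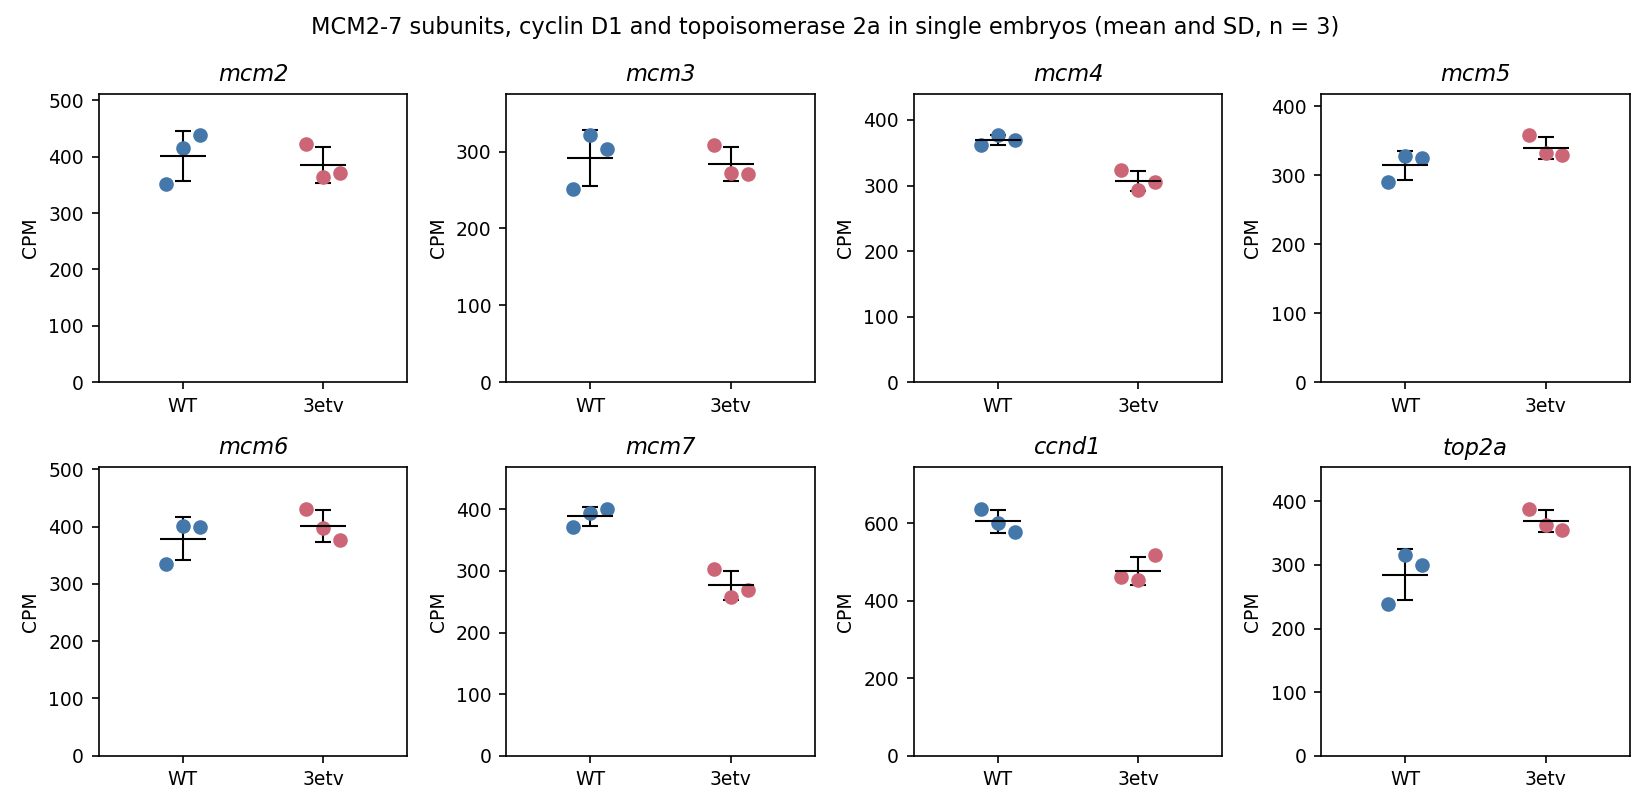
CPM (vertical axis, from 0) of the 6 MCM subunit genes, ccnd1 and top2a in WT (blue) and 3etv (red), 1 point per embryo in the order of embryo numbers, with bars for mean and SD of 3 embryos. The groups are apart in mcm4, mcm7, ccnd1 and top2a, and narrowly in mcm5, and overlap in mcm2, mcm3 and mcm6.

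The 5 loading and firing factors among the members did not pass. orc1, a subunit of the origin recognition complex, had 57.9, 60.5 and 60.6 CPM in WT and 64.2, 62.6 and 62.3 in 3etv, with a log2 fold change of 0.078 (95% interval -0.057 to 0.21). cdc6 and cdt1, which load MCM rings with that complex, had log2 fold changes of -0.095 and -0.045. gins1 and gins2, subunits of the GINS complex that joins the helicase to the polymerases, had 0.041 and -0.16. The edgeR adjusted p-values of these 5 genes lay between 0.25 and 0.77, and the interval of each excluded a change of 1.5-fold.

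The members that act in strand synthesis did not pass, with log2 fold changes from -0.15 to -0.010. lig1, the ligase that joins Okazaki fragments, had 438.1, 441.4 and 410.3 CPM in WT and 401.3, 352.8 and 411.5 in 3etv (log2 fold change -0.15, SE 0.066, edgeR adjusted p 0.11). prim1, the catalytic subunit of primase, had 52.6, 58.0 and 60.0 CPM in WT and 53.6, 50.9 and 50 in 3etv (log2 fold change -0.14, SE 0.072, adjusted p 0.15). In both genes 1 mutant embryo lay within the WT range. Without WT embryo 1, prim1 passed at a log2 fold change of -0.20 (edgeR adjusted p 0.048). Log2 fold changes were -0.12 for pola1, the catalytic subunit of polymerase alpha, -0.13 for rfc4 of the clamp loader, -0.10 for the flap endonuclease fen1, -0.037 for the clamp pcna and -0.010 for rpa1, which coats single strands. pcna, often used as a marker of cycling cells, spanned 816.0 to 859.1 CPM in WT and 790.5 to 858.3 in 3etv, and its interval ran from -0.16 to 0.081.

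Ribonucleotide reductase makes the deoxynucleotides for replication from a large subunit, rrm1, and a small one, rrm2. rrm1 had a log2 fold change of -0.069 (edgeR adjusted p 0.61). The 2 entries named rrm2 varied more among embryos of 1 genotype than any other member. Entry ENSDARG00000020711 had 190.7, 205.7 and 121.1 CPM in WT and 160.9, 219.9 and 106.0 in 3etv. Entry ENSDARG00000078069 had 120.2, 85.2 and 159.6 CPM in WT and 145.6, 60.2 and 199.6 in 3etv. An embryo high in one entry was low in the other. The first entry held between 34.7% and 78.5% of the counts of both, with the lowest and the highest share in 2 3etv embryos. Their sum was even, at 310.9, 290.9 and 280.8 CPM in WT and 306.6, 280.1 and 305.6 in 3etv. How reads were divided between these entries is not given in the sources used here, so values of a single rrm2 entry are uncertain.

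**Figure D3:**
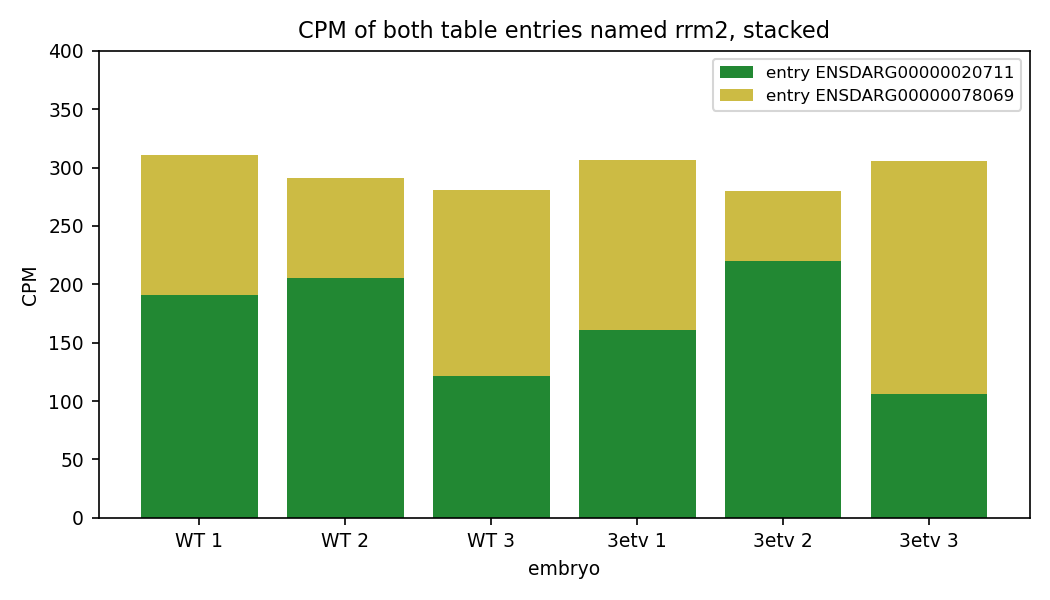
CPM (vertical axis) of both table entries named rrm2, stacked, for each of the 6 embryos (horizontal axis). The total stays between 280.1 and 310.9 CPM while the split between the entries differs from embryo to embryo in both genotypes.

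Among the 5 regulators of S phase entry, the D-type cyclin differed and the others did not pass. ccnd1 (ENSDARG00000101637) encodes cyclin D1, which drives cdk4 and cdk6 in G1 and is known in vertebrate cells as a gene induced by growth factor signals. It stood at 637.6, 601.8 and 579.0 CPM in WT and at 460.9, 453.0 and 517.8 in 3etv. The groups did not overlap, and the fall from 606.1 ± 29.6 to 477.3 ± 35.4 CPM (SD, n = 3 each) was -0.34 on the log2 scale (SE 0.065, edgeR adjusted p 0.0014), or 78.7% of the WT level. ccne1 encodes an E-type cyclin, the partner of cdk2, and had 27.0, 26.2 and 25.7 CPM in WT and 24.6, 21.4 and 23.0 in 3etv. These groups did not overlap either, but its difference of -0.20 on the log2 scale (SE 0.085) missed the threshold (edgeR adjusted p 0.096). The second E-type cyclin gene, ccne2, had -0.044, cdk2 had 0.10 and the transcription factor gene e2f1 had 0.18, with edgeR adjusted p-values of 0.69, 0.34 and 0.37. cdk2 had 42.5, 38.7 and 41.9 CPM in WT and 44.5, 41.2 and 46.6 in 3etv. e2f1, the member with the lowest CPM, had 7.23, 8.21 and 9.94 CPM in WT and 10.7, 9.29 and 8.73 in 3etv. In both genes the groups overlapped.

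Of the 21 mitosis genes, top2a was higher in 3etv and the other 20 did not pass. top2a (ENSDARG00000024488) encodes topoisomerase II alpha, which untangles sister chromosomes before they part. It stood at 239.0, 315.4 and 299.4 CPM in WT and at 388.2, 363.2 and 354.9 in 3etv, with all mutants above all WT embryos. The rise from 284.6 ± 40.2 to 368.8 ± 17.3 CPM (SD, n = 3 each) was 0.37 on the log2 scale (SE 0.090, edgeR adjusted p 0.0087), or 1.30-fold. Without WT embryo 1, the lowest of the 6, top2a still passed. In the RefSeq gene list of assembly GRCz12tu, which is not the build of the counts, top2a shares a chromosome with etv4, 310 protein-coding genes away. Of the 45 members placed in that list, 7 share a chromosome with a Pea3 gene, and mcm7, mcm4 and ccnd1 do not. The nearest were mcm6, 31 genes from etv5b, and birc5a, 123 genes from etv4, and neither passed. Whether position near a mutated gene has a part in the level of top2a or any other member was not tested, and the labels do not name the mutated genes.

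The members that drive entry into mitosis did not pass, but all had negative log2 fold changes. The 95% interval of each lay within 1.5-fold of WT. cdk1, the kinase that drives cells into mitosis, had 114.5, 131.2 and 129.1 CPM in WT and 116.8, 121.7 and 115.1 in 3etv, a log2 fold change of -0.084 (95% interval -0.23 to 0.059). Its cyclins did not pass either, with log2 fold changes of -0.045 for ccna2, -0.096 for ccnb1, -0.090 for ccnb2 and -0.13 for ccnb3. ccnb3 had 33.0, 37.4 and 36.8 CPM in WT and 33.6, 33.7 and 30.5 in 3etv (edgeR adjusted p 0.24). The polo kinase gene plk1 had 248.5, 270.4 and 280.5 CPM in WT and 253.7, 248.3 and 236.7 in 3etv, a difference of -0.11 on the log2 scale (SE 0.062, adjusted p 0.18). In each of these genes at least 1 mutant embryo lay inside the WT range. The Aurora kinase genes aurka and aurkb had -0.069 and -0.084.

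Checkpoint and exit genes showed no common direction. The checkpoint kinase genes bub1 and ttk had log2 fold changes of 0.083 and 0.0050, and mad2l1, which holds back anaphase, had -0.088. cdc20, the activator of the anaphase promoting complex that mad2l1 restrains, had 0.090. The survivin gene birc5a of the chromosomal passenger complex had 0.028. The edgeR adjusted p-values of these 5 genes ranged from 0.30 to 0.97.

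Spindle and cytokinesis genes included the most even members of all. kif23, a kinesin of the central spindle, had 138.0, 137.8 and 136.3 CPM in WT and 124.0, 124.4 and 125.2 in 3etv. The SD was 0.66% of the mean in WT and 0.49% in 3etv, and the groups lay apart. At its 2266 to 4028 counts per embryo, counting alone gives a larger spread on average, so this evenness cannot be read as a trait of the gene. edgeR moderates such small spreads toward those of other genes, and the difference of -0.14 on the log2 scale (SE 0.055) missed the threshold (adjusted p 0.068). anln, encoding the cytokinetic ring protein anillin, had 134.3, 134.3 and 138.9 CPM in WT and 144.0, 142.5 and 146.8 in 3etv, also without overlap, and a log2 fold change of 0.088 (edgeR adjusted p 0.25). The spindle genes kif11, tpx2 and prc1a had -0.026, -0.044 and 0.011. cenpf, of the kinetochore, had 0.018. mki67, the Ki-67 marker of cycling cells, spanned 854.9 to 1036 CPM in WT and 975.8 to 1094 in 3etv, with a log2 fold change of 0.094 (95% interval -0.064 to 0.25).

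The groups did not overlap for 9 of the 47 entries (19.1%), against 45.1% of all tested genes. The 5 with all mutants below all WT embryos were mcm7, mcm4, ccnd1, ccne1 and kif23, where such genes are 22.4% of all tested. The 4 with all mutants above were top2a, mcm5, orc1 and anln, where such genes are 22.7% of all tested.

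Replication and mitosis genes were then set against each other. The median log2 fold change was -0.069 for the 21 replication entries and -0.044 for the 21 mitosis genes, a difference of -0.025. In single embryos, the median of the replication entries relative to their WT mean was -0.080, 0.039 and 0.044 in WT embryos 1, 2 and 3 and 0.020, -0.13 and -0.086 in 3etv. For mitosis genes it was -0.11, 0.064 and 0.048 in WT and -0.021, -0.035 and -0.071 in 3etv. The mutants lay within the WT range for mitosis, and 2 of 3 lay below it for replication. WT embryo 1 alone set the lower end of both ranges, and all mutants lay below WT embryos 2 and 3 in both lists. Without WT embryo 1, the median log2 fold change was -0.14 for replication and -0.100 for mitosis. The difference between both medians, replication minus mitosis, was 0.030, -0.026 and -0.0036 in WT and 0.042, -0.096 and -0.015 in 3etv. Without 3etv embryo 2, the difference of the median fold changes was 0.012 in place of -0.025. The summed CPM of replication entries was 1.39, 1.30 and 1.32 times that of mitosis genes in WT and 1.27, 1.18 and 1.25 times in 3etv. That ratio did not overlap between groups, while the sums themselves did, at 4726 to 5190 CPM in WT and 4537 to 5041 in 3etv for replication and at 3411 to 3991 and 3751 to 3974 for mitosis. No test was run on the ratio, and mcm7, mcm4 and top2a, which differed, are part of it. Without these genes the ratio was 1.26, 1.20 and 1.22 in WT and 1.23, 1.15 and 1.21 in 3etv, and the groups overlapped. The genes left out were picked for differing in this same comparison, which by itself brings the groups closer. The overlap therefore cannot decide whether the balance of the remaining genes differs.

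**Figure D4:**
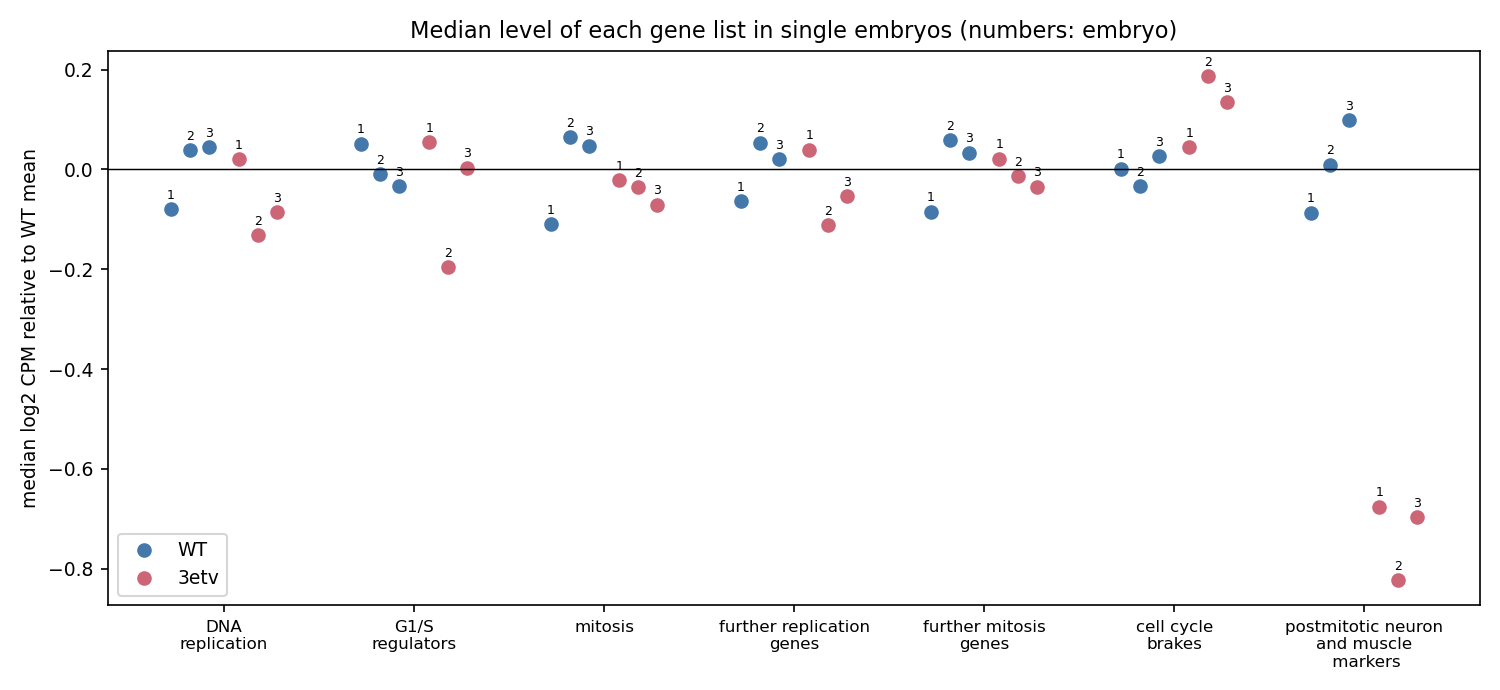
Median log2 CPM of the genes of each list relative to the WT mean of each gene (vertical axis), 1 point per embryo with its number, WT in blue and 3etv in red. For replication and mitosis genes the embryos of both genotypes lie between -0.13 and 0.064. Brakes lie narrowly higher in 3etv (0.045 to 0.19, against -0.033 to 0.027 in WT), and neuron and muscle markers lie lower.

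Variation within a genotype was shared by many members. WT embryo 1 had the lowest CPM of the 3 WT embryos in 17 of 21 replication entries and 18 of 21 mitosis genes, against 37.4% of all tested genes. It was the lowest in 1 of the 5 regulators of S phase entry, e2f1, and the highest of the WT embryos in the others, ccnd1, ccne1, ccne2 and cdk2. Among mutants, embryo 1 was the highest in 15 of 21 replication entries and 8 of 21 mitosis genes, against 34.1% of all tested genes. In each embryo, replication entries together took between 0.451% and 0.526% of gene counts and mitosis genes between 0.341% and 0.404%.

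**Figure D5:**
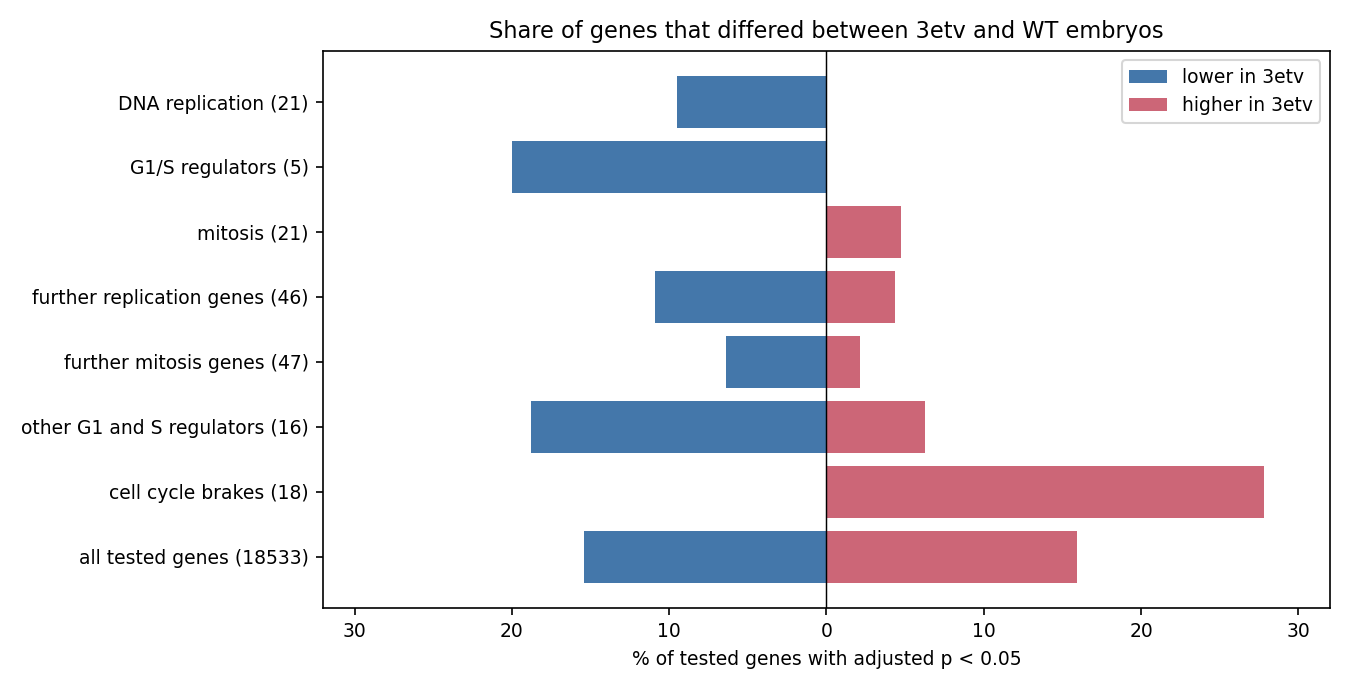
Share of tested genes (horizontal axis, in %) with an adjusted p under 0.05 that were lower (blue, to the left) or higher (red, to the right) in 3etv, for each list with its number of tested genes. Replication and mitosis lists have shorter bars in all than the tested genes together, and the bar of the brakes points to the higher side alone.

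Further genes of the same machinery were read from wider lists. Of 46 tested replication genes outside the members, 5 were lower and 2 higher in 3etv (10.9% and 4.35%, against 15.4% and 15.9% of all tested genes), with a median log2 fold change of -0.053. Lower were chaf1a of the histone chaperone behind the fork (-0.22, edgeR adjusted p 0.012), pole2 of polymerase epsilon (-0.32, adjusted p 0.019) and the clamp loader gene rfc5 (-0.22, adjusted p 0.020), and orc4 of the origin recognition complex was higher (0.29, adjusted p 0.036). The remaining 3 that passed were named after their values were seen. gins4 of the GINS complex was lower (-0.51, adjusted p 0.048), though its groups overlapped, at 32.89 to 40.05 CPM in WT and 19.82 to 32.93 in 3etv. dbf4, which activates the kinase that fires origins, was lower (-0.22, adjusted p 0.040). gmnn, encoding the cdt1 inhibitor geminin, was higher (0.19, adjusted p 0.047). Of 47 tested entries of further mitosis genes, 3 were lower and 1 higher (6.38% and 2.13%, against the same 15.4% and 15.9%), with a median of 0.0041. spc24, a subunit of the kinetochore complex that grips microtubules, fell from 52.2 ± 2.71 to 34.0 ± 2.33 CPM (SD, n = 3 each), a difference of -0.62 on the log2 scale (SE 0.078, edgeR adjusted p 7.05e-05). The others were fbxo5, an inhibitor of the anaphase promoting complex (-0.23, adjusted p 0.020), the condensin gene ncapg (-0.19, adjusted p 0.045) and the kinesin gene kif20ba (0.22, adjusted p 0.044).

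Further regulators of G1 and S phase included a second D-type cyclin. Of 16 tested, 3 were lower and 1 higher in 3etv, 25% in all against 31.3% of all tested genes, with a median log2 fold change of -0.019. The per-embryo median of this list relative to the WT mean did not overlap, at -0.0097 to 0.0079 in WT and -0.0808 to -0.0496 in 3etv. Nor did its summed level, at 969.5 to 1002 CPM in WT and 935.9 to 958.1 in 3etv. ccnd2a, encoding a cyclin D2, had 24.2, 25.3 and 26.1 CPM in WT and 18.7, 17.7 and 19.4 in 3etv, a difference of -0.44 on the log2 scale (SE 0.086, edgeR adjusted p 0.0018). Its groups lay apart, as those of ccnd1 did. mycb (-0.40, adjusted p 0.0053) and mycn (-0.18, adjusted p 0.032), both of the Myc family of growth regulators, were lower. tfdp2, a partner of E2F factors, was higher (0.20, adjusted p 0.029). Of the same families, ccnd2b (0.13, edgeR adjusted p 0.72) and myca (-0.017, adjusted p 0.93) did not pass, and ccnd3 did not pass the filter on low counts. cdk4 and cdk6, the kinases that D-type cyclins activate, had log2 fold changes of 0.0081 and -0.13 and did not pass.

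Among genes that slow the cycle, those that passed were all higher in 3etv. Of 18 tested brakes, 5 were higher (27.8%, against 15.9% of all tested genes) and the other 13 did not pass. In either direction the share was the same 27.8%, against 31.3% of all tested genes. Their median log2 fold change was 0.10. Their summed level overlapped between groups, at 1481 to 1733 CPM in WT and 1657 to 1998 in 3etv. The largest part of it came from ccng1, which did not pass and varied widely, at 465.8 to 696.5 CPM in WT and 503.8 to 814.5 in 3etv. The median of the list relative to the WT mean did not overlap, at -0.033 to 0.027 in WT embryos and 0.045 to 0.19 in 3etv embryos. btg2, an antiproliferative gene, had 226.4, 231.3 and 236.6 CPM in WT and 338.8, 343.5 and 339.3 in 3etv, a difference of 0.56 on the log2 scale (SE 0.053, edgeR adjusted p 7.42e-06). cdkn1a, the p21 inhibitor of cyclin-dependent kinases and a target of p53 in vertebrates, had 4.91, 3.76 and 3.83 CPM in WT and 7.17, 12.1 and 11.1 in 3etv, a difference of 1.29 on the log2 scale (SE 0.19, adjusted p 3.37e-04). Mutant embryos 2 and 3 were the higher ones in cdkn1a. The pocket protein gene rb1 (0.24, adjusted p 0.013) and e2f5, an E2F factor that pairs with pocket proteins (0.84, adjusted p 0.0062), were higher too. The fifth was rbl2, named after its values were seen, with 3.57, 2.81 and 4.67 CPM in WT and 6.80, 16.9 and 19.6 in 3etv (log2 fold change 1.98, SE 0.44, adjusted p 0.020). The other kinase inhibitor genes tested, cdkn1ba, cdkn1bb, cdkn1ca, cdkn1cb, cdkn2c and cdkn2d, did not pass, with log2 fold changes from -0.097 to 0.24. Whether brakes and members differ from each other was not tested.

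Markers of cells that have left the cycle moved with genotype. Of 12 neuron and muscle markers, 10 were tested, 8 of them lower and 1 higher in 3etv (against 15.4% and 15.9% of all tested genes), with a median log2 fold change of -0.77. Their summed level was 870.1 to 947.9 CPM in WT and 662.1 to 680.4 in 3etv, and myhz2 was at 0 counts in all 6 embryos. Of the 12 markers of embryonic tissues, 7 were lower and 3 higher, 83.3% in all against 31.3% of all tested genes. Their summed level was 6755 to 7474 CPM in WT and 6021 to 6136 in 3etv, most of it from the keratin gene krt4 at 6073 to 6836 and 5478 to 5564 CPM. The part of tissue makeup in the levels of cell cycle genes was not tested.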

How the data were processed

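Messenger RNA of 6 single embryos, 3 WT and 3 3etv, was analysed from the raw gene counts that the authors deposited, as whole numbers for Ensembl genes without normalization. STAR, HTSeq and the build GRCz11 are named in the submitters' processing notes; versions, annotation release and strand setting are not given in the sources used here, so reads of antisense or overlapping genes could not be told apart. The header has a space in place of 1 tab, and columns were matched to sample titles by the order of its names. The 5 summary entries of the table were left out. The one for reads assigned to no counted feature, which can include reads that lie within genes, held between 52.8% and 53.6% of all reads. No gene position and no sequence is given, because no annotation of that build was used here.

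Counts were fitted in R 4.3.3 with edgeR 4.0.16 (filterByExpr by group, TMM scaling, robust quasi-likelihood test with genotype as the sole term) over 18533 genes, and p-values were adjusted by Benjamini-Hochberg over all of them, with a threshold of 0.05. Per-embryo medians used log2 of CPM plus 0.5. SE is the absolute log2 fold change over the square root of F, and 95% intervals use the moderated degrees of freedom. The fit was tested on simulated counts with planted changes of 1.5-fold or more and a spread set by expression level alone. That test covers neither smaller changes nor genes of unusual spread. Alternatives were other scalings, DESeq2 1.42.0, limma 3.58.1 voom, other filters, a threshold of 0.01, counts thinned to the lowest gene total, leaving out the 20 genes with the most reads, the replicate block and leaving out each embryo. Lists are described by counts and medians, with no test over a list. Members and lists were chosen with earlier results of these data known. Values in every embryo are given for members that passed and for the 3 others of each role with the lowest adjusted p; from each further list, up to 4 genes that passed, by adjusted p. Other members shown in full were chosen after their values were seen. Nothing says that the embryos came from separate clutches. The p-values therefore set the difference between groups against the moderated spread between these embryos, and not against a spread between clutches.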

Additional observations from a re-analysis of the deposited data

How the results depend on the processing

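The same 4 members, mcm7, mcm4, ccnd1 and top2a, passed under each of 16 alternatives planned for them, with the same direction. Their log2 fold changes ranged from -0.56 to -0.44, from -0.30 to -0.23, from -0.41 to -0.31 and from 0.26 to 0.45, with adjusted p-values of at most 0.0022, 0.029, 0.013 and 0.035. With both rrm2 entries summed, an alternative chosen after seeing the data, the same 4 passed among 46. At an adjusted p under 0.01, 3460 genes differed in all in place of 5801, and the same 4 members passed. Without WT embryo 1, prim1 passed as well. No other member changed its call under these alternatives.

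The median of the replication entries ranged from -0.14 to -0.030 over the alternatives, and that of the mitosis genes from -0.100 without WT embryo 1 to 0.0061 without WT embryo 2. Their difference ranged from -0.074 without 3etv embryo 1 to 0.012 without 3etv embryo 2. With the replicate block, 4524 genes differed in all and 4 members passed. Deviations of same-numbered embryos correlated between -0.18 and -0.030, and those of other pairs between -0.091 and 0.19. So few embryos cannot decide whether the numbers pair them, and the labels name no pairing. With 3 embryos a group, changes well under 1.5-fold could be missed in single genes.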
